A study of Homo sapiens with 4 samples.

Results

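The genes described here encode the proteasome and the enzymes that attach ubiquitin to proteins or remove it. They were taken by gene symbol from the probes that carry exactly 1 symbol: proteasome subunits, inhibitor and assembly chaperones (PSMA, PSMB, PSMC, PSMD, PSMF and PSMG symbols), ubiquitin, ubiquitin-activating and ubiquitin-conjugating enzymes, UBE3 ligases, deubiquitinases (USP and UCHL symbols), cullins, their SKP and FBXW adaptors, the COP9 signalosome and VCP. The 3 immunoproteasome subunits PSMB8, PSMB9 and PSMB10 were left out by the rule. It gave 128 of 12483 genes, measured by 217 of 20976 probes. Of these genes, 70 had 1 probe and 58 had between 2 and 7. The rule is one of names, so it also holds USP6NL, which encodes a GTPase-activating protein, and USP46-DT, a transcript divergent from USP46, neither of which is a deubiquitinase. The Y-linked USP9Y was counted among the 128 and its values are not given.

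RNA came from A549, an established line from a human lung adenocarcinoma, and was hybridised to 4 two-colour cDNA arrays. Each array held a culture overexpressing the microRNA gene let-7a-3 and a culture of the parental line, with the dyes exchanged between arrays 1 and 3 and arrays 2 and 4. Both kinds of culture were grown in the same serum-supplemented medium with no further treatment. The comparison was with parental cells, so transfection itself is part of it, and the number of transfected lines behind the let-7a-3 cultures is not stated. In bulk RNA, fewer cells with a transcript and less of it per cell cannot be told apart.

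Every value below is a deposited log ratio of the channels of an array, after variance-stabilizing normalization by the authors. Neither the base of the logarithm, nor the numerator channel, nor any turning of the dye-swapped arrays is stated. Positive and negative therefore do not say which culture was higher, and no fold is given. The log ratios of each gene were split into a component common to all 4 arrays, the shared component (the mean over arrays), and one that flips between the dye orientations, called the alternating component (written with the sign of arrays 1 and 3). Which of them is the let-7a-3 effect is not settled by the labels. A gene was called at an adjusted p under 0.05 in limma, adjusted over all 12483 genes. Array medians over all probes lay between -0.0022 and 0.0174 and standard deviations between 0.173 and 0.193. A ratio has no level, so markers cannot check the identity of the cells. As differences between cultures, 1 of 4 measured lung epithelial markers, 0 of 3 fibroblast markers, 0 of 4 endothelial markers and 1 of 2 blood cell markers passed in the shared component, and at an unadjusted p under 0.05 each of these 4 lists had 1. No probe carried the symbol MIRLET7A3 (0 probes), so the overexpressed gene itself was not analysed here.

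The proteasome degrades proteins tagged with ubiquitin. Its barrel, the core particle, has outer rings of alpha subunits and inner rings of beta subunits, some of which cut peptide bonds, and the regulatory particle on its ends recognises, unfolds and feeds in the substrate. Ubiquitin is activated by an E1 enzyme, passed to an E2 conjugating enzyme and placed on the substrate by an E3 ligase, and the largest family of E3 ligases is built on cullins. The COP9 signalosome, an assembly related to the lid of the regulatory particle, removes the ubiquitin-like protein NEDD8 from cullins, deubiquitinases take ubiquitin off again, and VCP pulls tagged proteins out of membranes and complexes.

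The main mature product of the overexpressed gene is let-7a-5p, and let-7a-3p comes from the other arm of the same hairpin. They are shown as the agents of the experiment, from RefSeq on GRCh38.p14 (chr22:46112752-46112773 and chr22:46112800-46112820, plus strand), 5′ to 3′, with the seed, bases 2 to 8, in capitals.
hsa-let-7a-5p: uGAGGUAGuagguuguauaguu
hsa-let-7a-3p: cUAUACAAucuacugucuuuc

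In the shared component 7 of the 128 genes passed, 4 with positive and 3 with negative log ratios. This is 5.47% of the members, against 3.04% of all genes (379 of 12483; 1.63% positive and 1.41% negative). The positive ones were PSMG3, UBE2J1, UCHL1 and UBE2T, and the negative ones COPS3, PSMD6 and PSMG1. With no adjustment, p was under 0.05 for 27 members (21.1%) and for 14.6% of all genes. The median over the 128 members was 0.010, against 0.0069 over all genes, with 78 positive and 50 negative members. A size of 0.2 or more was reached by 8 members (6.25%), against 4.09% of all genes, and 100 members (78.1%) lay below 0.1 in size, against 82.9% of all genes. The members therefore had no common sign. Of the 7 called genes, PSMG3 and PSMG1 are both assembly chaperones, with opposite signs, and UBE2J1 and UBE2T are both conjugating enzymes, while PSMD6, COPS3 and UCHL1 were each the called gene of their role. The count of 7 depended on single arrays. Leaving out arrays 1, 2, 3 and 4 in turn gave counts of 13, 2, 16 and 2, while the percentage of all genes called was 6.39, 1.43, 11.8 and 1.63 in these fits.

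**Figure D1:**
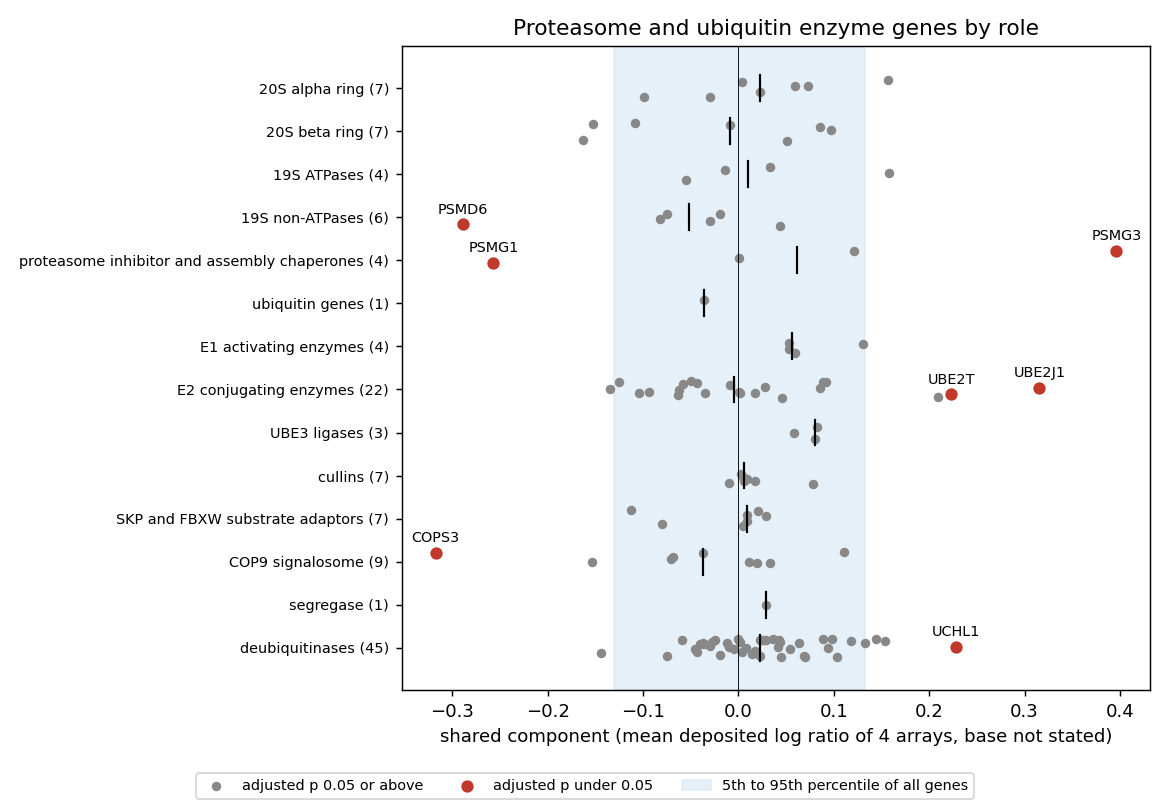
Shared component (mean deposited log ratio of 4 arrays, base not stated, x axis) of each member gene by role (y axis, number of genes drawn in parentheses, USP9Y not drawn). Red points mark the 7 genes past an adjusted p of 0.05, black bars the medians of the roles and the shaded band the 5th to 95th percentile of all genes (-0.13 to 0.13). Most members lie inside the band, and the called genes lie at both ends.

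Among the 3 measured assembly chaperones, PSMG3 had the highest shared value of the 28 proteasome genes and PSMG1 the second lowest. PSMG3 encodes a chaperone that, with its partner PSMG4, helps to build the alpha ring of the core particle. Its log ratios were 0.41, 0.52, 0.36 and 0.30 on arrays 1 to 4 (0.40 ± 0.09, SD, n = 4; 95% interval 0.28 to 0.51; adjusted p = 0.00429). All 4 arrays were positive and the dye orientations had means of 0.38 and 0.41, so the value hardly depended on orientation. PSMG3 was the one member that passed under each of the 17 alternatives tried, with adjusted p between 1.82e-06 and 0.0215. With 1 probe, it could not change in value under other thresholds or other ways to combine probes. It ranked 121 by size in the shared component among all 12483 genes.

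PSMG1 encodes a chaperone of alpha ring assembly that acts as a pair with PSMG2. Its log ratios had the opposite sign to those of PSMG3, at -0.33, -0.14, -0.50 and -0.06 on arrays 1 to 4 (-0.26 ± 0.20, SD, n = 4; adjusted p = 0.0251). It was negative on every array, but its mean was -0.41 on arrays 1 and 3 and -0.10 on arrays 2 and 4. The call was lost without array 2 (adjusted p = 0.16) or array 4 (0.0864). PSMG2, its partner, was positive on all 4 arrays, at 0.04, 0.19, 0.16 and 0.10, and did not pass (0.12 ± 0.07; adjusted p = 0.241). The partners of this pair thus had values of opposite sign on 4 of 4 arrays. PSMF1, an inhibitor of the proteasome, was at 0.00081 with an interval of -0.11 to 0.11.

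None of the 14 measured core particle genes passed, 7 of them alpha and 7 beta subunits. Of the 14, 6 had an unadjusted p under 0.05 in limma, 2 positive and 4 negative, where 14.6% of all genes did. Their shared values ran between -0.16 and 0.16, around a median of 0.013. Among alpha subunits, PSMA6 had 0.19, 0.22, 0.15 and 0.06 on arrays 1 to 4 (0.16; adjusted p = 0.13) and PSMA4 had -0.11, -0.09, -0.14 and -0.06 (-0.10; adjusted p = 0.294). As the mean of 2 probes, each kept 1 sign on 4 arrays, and the signs were opposite. In each of these genes 1 of the 2 probes did not keep that sign on every array. PSMA1 was at 0.073 and PSMA8, a testis form of an alpha subunit, at 0.059.

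Among the beta subunits, the catalytic PSMB6 had -0.17, -0.05, -0.32 and -0.07 on arrays 1 to 4 (-0.15; adjusted p = 0.134), and the catalytic PSMB7 had -0.17, -0.24, -0.15 and -0.09 (-0.16; adjusted p = 0.107). PSMB5, the catalytic subunit that binds the drug bortezomib, was at 0.051 with an interval of -0.054 to 0.16. The 3 catalytic subunits therefore did not share a sign, and none was called. PSMB6 was the mean of 2 probes, 1 of them negative on arrays 1 and 3 and positive on arrays 2 and 4. It passed without array 1 (-0.19; adjusted p = 0.0177). PSMB7 passed without array 3 (-0.17; adjusted p = 0.0331), as did PSMA6 (0.17; adjusted p = 0.035). Calls gained in this way, here and below, come from fits that called more of all genes. Their share was 6.39% without array 1 and 11.8% without array 3, against 3.04% with all 4 arrays. The structural subunits PSMB2 (0.097) and PSMB3 (-0.11) kept 1 sign on 4 arrays and did not pass. PSMB2 was the mean of 2 probes, 1 of which was at -0.018 on array 3. PSMB4 had -0.26, 0.18, 0.30 and -0.26 on arrays 1 to 4, with an SD of 0.29 and both signs within each orientation.

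Of the 10 measured regulatory particle genes, PSMD6 passed. It encodes a subunit of the lid, the part that removes the ubiquitin chain from the substrate. Its log ratios were -0.31, -0.24, -0.39 and -0.22 on arrays 1 to 4 (-0.29 ± 0.08, SD, n = 4; 95% interval -0.38 to -0.19; adjusted p = 0.00874). All 4 arrays were negative, and the orientations had means of -0.35 and -0.23. The call was lost without array 2 (adjusted p = 0.0656) or array 4 (0.0502). The value of PSMD6 stayed between -0.35 and -0.23 under the 17 alternatives. Several of these, such as other thresholds or ways to combine probes, cannot change the value of a gene with 1 probe. The lid subunits PSMD11 (-0.082) and PSMD12 (0.044) did not pass. Both had an SD of 0.21 over the arrays. PSMC6, an ATPase of the base, had 0.17, 0.32, -0.12 and 0.26 on arrays 1 to 4 (0.16; adjusted p = 0.223) and passed without array 3 (0.23; adjusted p = 0.00248).

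**Figure D2:**
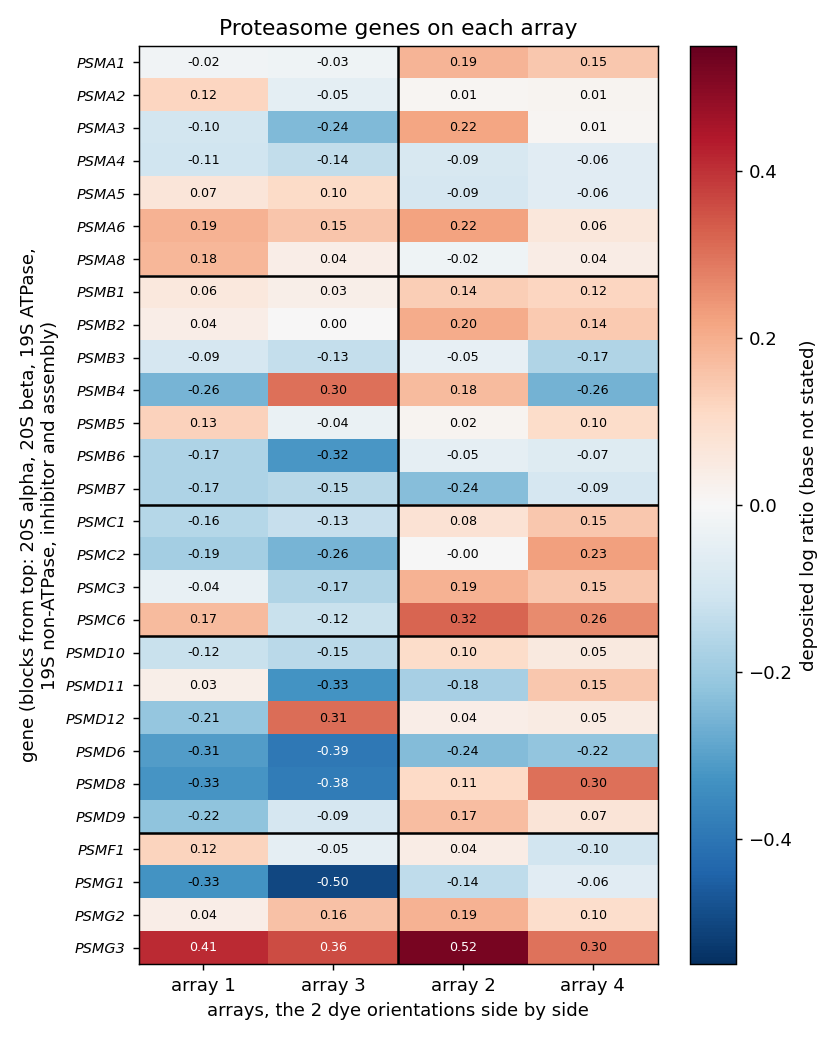
Deposited log ratio (colour and printed value, base not stated) of each of the 28 proteasome genes (rows, in 5 blocks by role) on each array (columns, arrays 1 and 3 left of the vertical line, arrays 2 and 4 right of it). PSMG3 is positive and PSMD6 and PSMG1 are negative in all columns, and 5 of the 10 regulatory particle genes are negative left of the line and positive right of it.

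Of the 10 measured genes with regulatory particle symbols, 9 were negative in the alternating component, with a median of -0.13. Over all genes 6711 of 12483 were negative, with a median of -0.0081. PSMD8, a lid subunit, had -0.33, 0.11, -0.38 and 0.30 on arrays 1 to 4, and it was the one of the 10 called in this component (-0.28; adjusted p = 0.0308). It was negative on arrays 1 and 3 and positive on arrays 2 and 4, and the call was lost without array 2 (adjusted p = 0.068) or array 4 (0.144). A negative value on both arrays 1 and 3 with a positive value on both arrays 2 and 4 was found in 5 of the 10 genes (PSMC1, PSMC3, PSMD8, and PSMD9 and PSMD10, which carry subunit symbols and act as assembly chaperones of the base), against 14.8% of all genes. The opposite pattern was found in 0 of 10, against 13.4% of all genes. The ATPases PSMC1 (-0.13), PSMC2 (-0.17), PSMC3 (-0.14) and PSMC6 (-0.13) were close to each other in the alternating component. Each had an unadjusted p under 0.05 in limma, as did 25.6% of all genes, and none passed the adjusted threshold. The core particle showed 2 of 14 genes with this pattern and 1 of 14 with its opposite.

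Among the enzymes upstream of the proteasome, UBE2J1 had the largest value. It encodes a membrane-bound conjugating enzyme of the endoplasmic reticulum that takes part in the degradation of misfolded secretory proteins. Its log ratios were 0.45, 0.31, 0.32 and 0.19 on arrays 1 to 4 (0.32 ± 0.11, SD, n = 4; 95% interval 0.21 to 0.42; adjusted p = 0.00876). It was positive on every array, with a mean of 0.38 on arrays 1 and 3 and 0.25 on arrays 2 and 4. The call was lost without array 2 (adjusted p = 0.0676). Its relative UBE2J2, an enzyme of the same membrane, was at 0.0014 and did not pass. In the shared component VCP, which extracts such substrates from the membrane, was at 0.029 over its 4 probes (interval -0.064 to 0.12). Its cofactors UFD1 (0.061) and NPLOC4 (0.056), which are not among the 128, did not pass. In the alternating component VCP (-0.10), UBE2J2 (-0.12) and NPLOC4 (-0.097) had an unadjusted p under 0.05 in limma, and UFD1 (-0.091) did not. Over all genes this share was 25.6%, and none of these genes passed the adjusted threshold.

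UBE2T, the conjugating enzyme of the Fanconi anaemia pathway of DNA crosslink repair, had 0.16, 0.37, -0.02 and 0.38 on arrays 1 to 4 (0.22 ± 0.19, SD, n = 4; adjusted p = 0.0439). Array 3 was near 0, and the means of the orientations were 0.068 on arrays 1 and 3 and 0.38 on arrays 2 and 4. The call was lost without array 2 (adjusted p = 0.206), without array 4 (adjusted p = 0.204) and when each array was centred on its median (adjusted p = 0.0516). UBE2Q1 had a similar mean, 0.21, with 0.10, 0.05, 0.50 and 0.18 on arrays 1 to 4, and did not pass (adjusted p = 0.172). It passed without array 1 (0.31; adjusted p = 0.000118). UBE2L6, which conjugates the interferon-induced protein ISG15, was negative on all 4 arrays as the mean of 2 probes (-0.12; adjusted p = 0.183). These probes differed, and 1 of them had 0.18, -0.17, 0.20 and -0.20 on arrays 1 to 4. UBE2C, a partner of the anaphase-promoting complex, was at -0.13 with an SD of 0.21 and did not pass. Of the 22 conjugating enzymes 20 did not pass, and their median was -0.0042.

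The other enzymes of the cascade had small values in the shared component. The 4 measured E1 enzymes were all positive and none passed in limma, UBA1, the main E1 of ubiquitin, being the highest at 0.16, 0.02, 0.26 and 0.08 on arrays 1 to 4 (0.13; adjusted p = 0.187). UBA3, an E1 subunit for NEDD8, was at 0.053, UBA6 at 0.053 and UBA7, the E1 of ISG15, at 0.059. UBA7 passed without array 3 (0.16; adjusted p = 0.0393). With no adjustment, UBA1 alone of the 4 had a p under 0.05 in the shared component. The ubiquitin gene UBB was at -0.036 with an interval of -0.14 to 0.063. The ligases UBE3A (0.080), UBE3C (0.058) and UBE3D (0.082) were positive in this component, none past the threshold and 0 of 3 at an unadjusted p under 0.05. In the alternating component UBA6 (0.10) and UBE3C (-0.10) had an unadjusted p under 0.05 in limma, as did 25.6% of all genes. None of the E1 enzymes or UBE3 ligases passed the adjusted threshold there.

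In the shared component the 7 cullins lay between -0.010 and 0.079. None passed in limma, and 0 had an unadjusted p under 0.05. In the alternating component 3 of the 7 had an unadjusted p under 0.05, as did 25.6% of all genes, and none passed. Values that follow are of the shared component unless given by array. CUL1, the scaffold of the SCF ligases, was at 0.0058 (interval -0.094 to 0.11), and CUL2, the scaffold used by VHL, at 0.079. CUL2 had 0.14, -0.12, 0.39 and -0.10 on arrays 1 to 4, so it varied by orientation more than in common. SKP1, the adaptor between CUL1 and F-box proteins, was at 0.020. Of the F-box proteins, FBXW7, which targets MYC and cyclin E, was at 0.0091 (interval -0.086 to 0.10). FBXW5 was negative on all 4 arrays, at -0.06, -0.15, -0.03 and -0.21, and did not pass (-0.11; adjusted p = 0.232). FBXW2, as the mean of 3 probes, was also negative on all 4 arrays (-0.080, adjusted p = 0.449 in limma). Its probes did not share a sign, with values between -0.23 and 0.032. In all, 17 of the 128 members were negative on all 4 arrays and 13 positive on all 4, that is 13.3% and 10.2%, against 6.94% and 8.84% of all genes.

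COPS3 encodes a subunit of the COP9 signalosome with the same kind of domain as the lid subunits of the proteasome. It had the lowest shared value of the members shown, with -0.33, -0.20, -0.43 and -0.31 on arrays 1 to 4 (-0.32 ± 0.09, SD, n = 4; 95% interval -0.42 to -0.22; adjusted p = 0.00769). It was negative on all arrays, with a mean of -0.38 on arrays 1 and 3 and -0.26 on arrays 2 and 4. The call was lost without array 4 (adjusted p = 0.0565). COPS8 was also negative on all 4 arrays and did not pass (-0.15; adjusted p = 0.223), and without array 1 it passed (-0.23; adjusted p = 0.004). COPS7A was at 0.11, and COPS5, the subunit that cleaves NEDD8 from cullins, at 0.020. Of the 9 signalosome genes 4 were positive and 5 negative, so COPS3 did not stand for its complex.

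Of the 46 genes with USP or UCHL symbols, UCHL1 passed. It encodes a neuronal and neuroendocrine deubiquitinase that many lung tumour cells also make. Its log ratios were -0.04, 0.39, 0.06 and 0.51 on arrays 1 to 4 (0.23 ± 0.26, SD, n = 4; adjusted p = 0.0336). The values on arrays 2 and 4 were high and those on arrays 1 and 3 near 0, with means of 0.45 and 0.0081. UCHL1 was therefore also called in the alternating component (-0.22; adjusted p = 0.0424). The shared call was lost without array 2 (adjusted p = 0.0961) or array 4 (0.239), and so was the alternating one (adjusted p = 0.138 and 0.215). UCHL3, a close relative, was at 0.0018 and UCHL5, which sits on the proteasome, at 0.054.

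USP8, a deubiquitinase of endosomal sorting that acts on receptors such as EGFR, had the largest alternating value of the members shown. Its log ratios were 0.16, -0.47, 0.28 and -0.55 on arrays 1 to 4 (alternating component 0.37, adjusted p = 0.0179; shared component -0.14, adjusted p = 0.153). It was positive on arrays 1 and 3 and negative on arrays 2 and 4. The alternating call was kept without each array in turn, with values between 0.34 and 0.40. Over the 14 alternatives that gave this component, its adjusted p in limma reached up to 0.0492. The call was lost at a threshold of 0.01. Without array 3 it also passed in the shared component (-0.17; adjusted p = 0.0238). USP21 (0.14; adjusted p = 0.134) and USP5 (0.15; adjusted p = 0.201), which takes apart free ubiquitin chains, also had large statistics among the deubiquitinases in the shared component. USP5 had 0.21, 0.28, -0.01 and 0.14 on arrays 1 to 4 and passed without array 3 (0.21; adjusted p = 0.00723). USP7, which removes ubiquitin from MDM2 and p53, was negative on all 4 arrays at a small size (-0.043; interval -0.14 to 0.051).

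**Figure D3:**
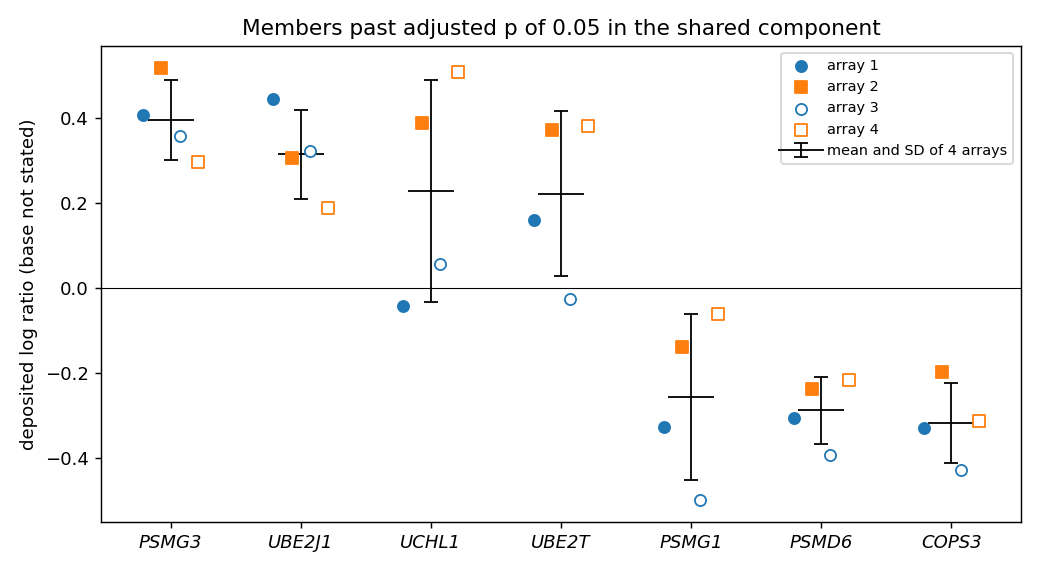
Deposited log ratio (base not stated, y axis) of the 7 members past an adjusted p of 0.05 in the shared component, one point per array (circles for arrays 1 and 3, squares for arrays 2 and 4), with the mean and SD of 4 arrays. PSMG3, UBE2J1, PSMD6 and COPS3 have arrays of both orientations close together, while UCHL1 and UBE2T are high on arrays 2 and 4 and near 0 on 1 array or both of the others.

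In the alternating component 4 of the 128 members passed, 3.12% against 3.29% of all genes (411 of 12483), so the members were called about as often as all genes. They were USP8 (0.37) and UBE2E1 (0.25) with positive values, against 1.9% of all genes, and PSMD8 (-0.28) and UCHL1 (-0.22) with negative ones, against 1.39%. With no adjustment, 40 members (31.2%) had a p under 0.05, against 25.6% of all genes. UBE2E1, a conjugating enzyme, had 0.23, -0.22, 0.13 and -0.39 on arrays 1 to 4 (adjusted p = 0.0395). The call was lost without array 2 (adjusted p = 0.101) or array 4 (0.187). Leaving out arrays 1 to 4 in turn gave counts of 24, 1, 10 and 1. The share of all genes called in these fits was not counted for this component. The counts therefore cannot be read as a trait of the members.

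**Figure D4:**
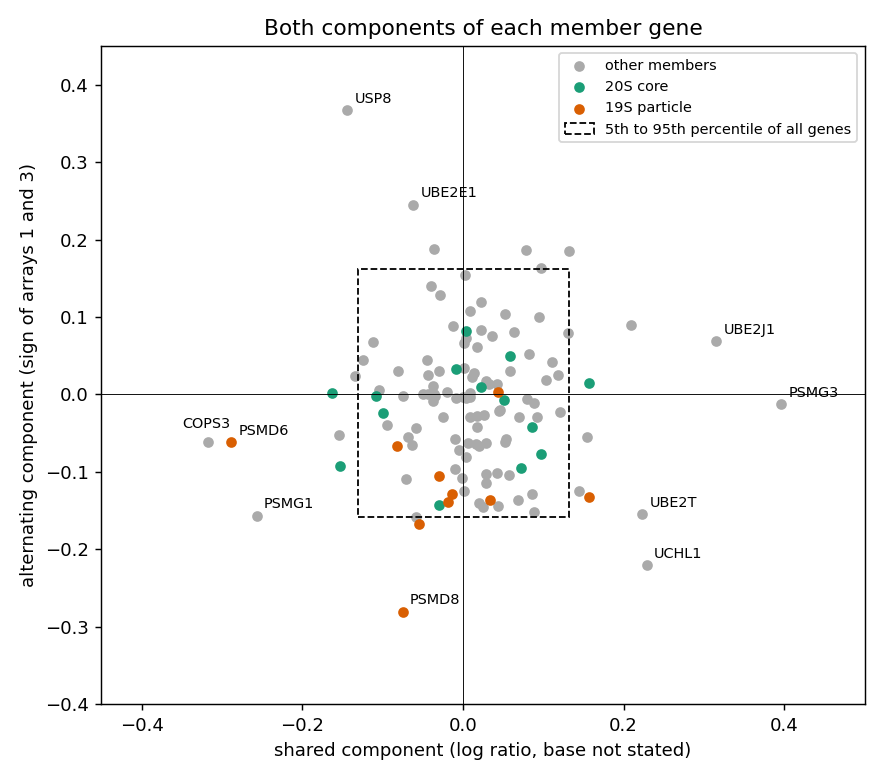
Shared component (x axis) against alternating component (y axis, sign of arrays 1 and 3) of each member gene, both as log ratios of unstated base, with USP9Y not drawn. Names mark the 10 genes called in either component and the dashed box spans the 5th to 95th percentile of all genes on each axis; 9 of the 10 orange points of the regulatory particle lie below 0 on the y axis.

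Probes of the same gene often differed. At the probe level 8 of the 217 member probes passed in the shared component, 3.69% against 2.07% of all 26629 probes. They were the single probes of PSMG3, UBE2J1, COPS3, PSMD6 and PSMG1, and 1 probe each of PSMA6, PSMB7 and UBE2L6, which did not pass as genes. The called PSMA6 probe had 0.21, 0.38, 0.39 and 0.24 on arrays 1 to 4 (0.30; adjusted p = 0.0238), and the other one lay at 0.0088. The called PSMB7 probe had -0.19, -0.56, -0.40 and -0.26 (-0.35; adjusted p = 0.027), and the others lay at -0.18 and 0.045. The called UBE2L6 probe had -0.28, -0.20, -0.42 and -0.12 (-0.25; adjusted p = 0.0445), and the other one had a mean of 0.0023. That other probe was positive on arrays 1 and 3 and negative on arrays 2 and 4. In each of these 3 genes at least 1 further probe had a mean near 0. UCHL1 and UBE2T, with 1 probe each, were called as genes but not at the probe level (adjusted p = 0.0655 and 0.0797).

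Of the members with exactly 2 probes, both had the same sign in 23 of 37 genes in the shared component (62.2%, against 54.8% of all 3108 such genes) and in 18 of 37 in the alternating component (48.6%, against 52.2%). No test was made of these shares. Genes with more probes whose probes lay close together were USP45, with 4 probes between 0.049 and 0.088, USP48, with 3 between 0.065 and 0.075, and UBE2H, with 4 between -0.0012 and 0.027. FBXW8 with 7 probes ran between -0.15 and 0.081, and USP34 with 7 between -0.049 and 0.11, so single probes of these genes would give either sign. In the alternating component 9 of 217 member probes passed, 4.15% against 4.28% of all probes. In UBA6, USP46 and CUL4B the called probe had the opposite sign to the gene's other probe, as with 0.28 and -0.070 in UBA6. In COPS6 the called probe was at -0.22 and the other at 0.00018. Both probes of USP25 were negative, the called one at -0.22 and the other at -0.083.

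**Figure D5:**
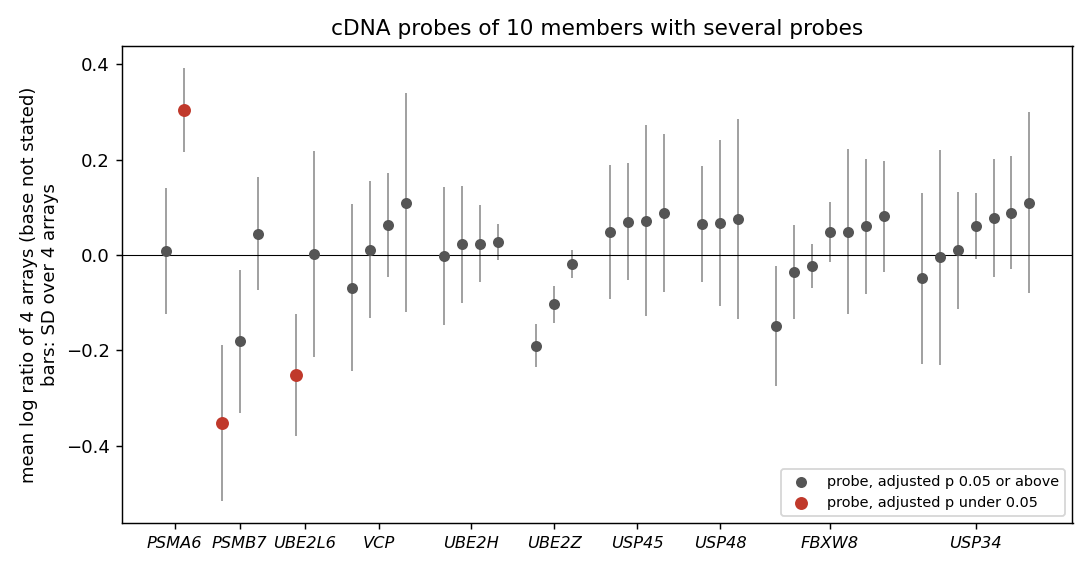
Mean log ratio of 4 arrays (base not stated, y axis; bars show the SD over arrays) of each probe of 10 members with several probes, sorted within a gene (x axis). The genes were picked for the plot after their values were seen: the 3 with a called probe (red) and 7 with 3 or more probes; the called probes of PSMA6, PSMB7 and UBE2L6 lie apart from at least 1 other probe of the gene near 0.

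Other genes of the pathway were taken from a list of 50, of which 36 were measured. In the shared component 0 passed with a positive and 1 with a negative value, PSMB8, a catalytic subunit of the immunoproteasome (-0.29; adjusted p = 0.00788), and 6 had an unadjusted p under 0.05 in limma. Over all genes these shares were 3.04% and 14.6%. PSMB9, of the same particle, lay between -0.17 and -0.15 on the 4 arrays and did not pass (adjusted p = 0.0784). The activators PSME1 (-0.16) and PSME2 (-0.16) were widely spread, with SDs of 0.29 and 0.31. NFE2L1, the transcription factor that raises proteasome genes when the particle is inhibited, was positive on all 4 arrays and did not pass (0.12; adjusted p = 0.265). RBX1, the RING partner of cullins, was at -0.028 and CAND1, their exchange factor, at -0.0017. The median of the 36 genes was 0.0097.

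Promoters were read from RefSeq on GRCh38.p14, from 250 bases before to 50 after the first listed start of a gene, and 105 of the members had one, 24 of them proteasome genes and 6 of them called in the shared component. The antioxidant response core TGACNNNGC, a motif to which NFE2L1 and NFE2L2 bind, was searched on both strands because proteasome genes are known targets of NFE2L1. It was found in 21 of the 105 members (20%), in 5 of the 24 proteasome genes (20.8%) and in 13.6% of all 27305 promoters. The 5 were PSMB3, PSMD9, PSMD12, PSMG1 and PSMG2. Among the called genes COPS3 and PSMG1, with negative values, and UBE2J1, with a positive one, held it, so the letters did not go with 1 sign. The unfolded protein response element TGACGTGG was found in 3 members (UBE2J1, CUL5 and VCP; 2.86%, against 0.795% of all promoters). In UBE2J1 it lies within the antioxidant response core, so the same bases gave both matches. The longer endoplasmic reticulum stress element was found in 0 of the 105 members, against 0.0806% of all promoters. A match is a description of these letters and does not show binding. The 3 promoters of called genes that hold a core are shown 5′ to 3′ on the strand of the gene, all minus, with the core in capitals (COPS3 at chr17:17281197-17281496, PSMG1 at chr21:39183402-39183701 and UBE2J1 at chr6:89352673-89352972).
COPS3: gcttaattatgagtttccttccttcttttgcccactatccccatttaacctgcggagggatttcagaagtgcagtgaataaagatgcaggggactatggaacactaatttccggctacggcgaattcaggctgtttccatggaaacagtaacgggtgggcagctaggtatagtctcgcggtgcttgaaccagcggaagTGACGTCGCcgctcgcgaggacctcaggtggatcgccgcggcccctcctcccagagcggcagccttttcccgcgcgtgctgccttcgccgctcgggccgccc
PSMG1: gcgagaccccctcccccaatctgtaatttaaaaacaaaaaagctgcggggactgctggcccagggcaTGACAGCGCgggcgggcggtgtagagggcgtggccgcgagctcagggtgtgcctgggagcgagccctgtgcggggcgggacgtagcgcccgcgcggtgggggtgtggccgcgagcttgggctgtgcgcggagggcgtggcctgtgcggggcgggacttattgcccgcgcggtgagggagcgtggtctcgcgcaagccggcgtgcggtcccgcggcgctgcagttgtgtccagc
UBE2J1: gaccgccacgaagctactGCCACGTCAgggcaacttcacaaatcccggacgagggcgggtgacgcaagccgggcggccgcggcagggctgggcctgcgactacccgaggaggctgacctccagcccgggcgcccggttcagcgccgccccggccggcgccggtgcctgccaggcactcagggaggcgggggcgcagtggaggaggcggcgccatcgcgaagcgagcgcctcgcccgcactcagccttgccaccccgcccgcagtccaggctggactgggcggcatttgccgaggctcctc
The core begins at base -52 from the start in COPS3, at -183 in PSMG1 and, on the opposite strand, at -232 in UBE2J1.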

How the data were processed

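The authors ran ArrayMagic with variance-stabilizing normalization on GenePix files, then limma, per the design text of the series. The deposited values, 1 per probe and array, have no stated unit beyond a normalized log ratio and were treated as a score on a log scale of unknown base. For software versions, spot filters and averaging the sources state nothing, and small ratios of dim spots can be compressed. From these values, probes were named by the platform annotation (20963 of 20976 with a gene ID in the GRCh38.p14 table, 0 symbols changed), and probes of a symbol were averaged. Another 20 probes with several symbols that match the rule in part were left out. limma 3.58.1 (R 4.3.3) fitted 2 coefficients (shared, alternating) with 2 residual and 5.89 prior degrees of freedom per gene, two-sided, adjusting p by Benjamini-Hochberg over the whole table of genes or of probes. Intervals are at 95% from the moderated errors. The design text describes the 4 cultures of each kind as biological replicates, and p-values cover only the spread between these 4 arrays. The fit was run on simulated data drawn with the spread that the fit itself estimated, so its assumptions were not tested. It recovered 57% of changes of 0.25 and 98% of changes of 0.5, and 7.19% of the calls were false. Members, role lists and the list of other pathway genes were chosen with earlier results of these data known. Named genes are the members called in either component and up to 4 per role with the largest shared statistic. They also include 8 measured genes of a fixed list of 12 (UBB and VCP among them) and probes called in the shared component. Others (PSMD9, PSMD12, PSMB4, COPS5, UCHL3, UCHL5, USP25, USP34, USP45, USP46, USP48, UBE2C, UBE2H, UBE2J2 and FBXW8) were named after their values were seen. Alternatives are listed in the closing section; figures were drawn with matplotlib 3.10.9.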

Additional observations from a re-analysis of the deposited data

Results flagged for a closer look

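Among the 54 named genes, 2 had 1 array far from the other 3, by a gap of more than 0.829 of the gene's range over 4 arrays. Chance flags about 1 gene in 20. COPS8 stood at -0.35 on array 3, against -0.06 to -0.10 on the other arrays. COPS7A stood at -0.041 on array 4, against 0.15 to 0.18 on the others. Both encode subunits of the COP9 signalosome, and neither was called.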

How the results depend on the processing

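Of 974 values of single named genes under alternatives, 881 kept their sign and side of the threshold, 30 were no longer past it, 23 were newly past it, 39 stayed uncalled with the other sign and 1 was called with the other sign. The last was PSMD8 in the shared component, at 0.21 from arrays 2 and 4 alone (adjusted p = 0.0195). Member genes called in the shared component were 7, and 4 without the dye term or at a threshold of 0.01, and 24 from arrays 2 and 4 alone, when 17.4% of all genes were called. All genes called were 379, and 156 without the dye term, 162 at 0.01, 613 at 0.1, 690 with the probe of the largest statistic and 2167 from arrays 2 and 4 alone. Without the dye term UCHL1, UBE2T and PSMG1 were not called. Member probes called were 8, and 1 without the dye term or at 0.01, 5 from arrays 1 and 3 alone and 14 from arrays 2 and 4 alone. In the alternating component, at 0.01 and 0.1, member genes were 0 and 19 and member probes 0 and 22; 2 arrays of 1 orientation gave no value for it. Leaving out each array in turn gave 2 to 16 member genes, 0 to 10 member probes and 179 to 1471 genes in the shared component, and 1 to 24 member genes and 0 to 9 member probes in the alternating one. Under the alternatives, the share of all probes called was not counted, nor that of all genes in the alternating component. Member counts of these kinds therefore cannot be set against such a share. The members' median stayed within 1 SD between arrays (0.0267) of its value. Median centring, equal median absolute deviation, quantile normalization, robust moderation (statmod 1.5.0), array weights, the median of probes and probes with 1 symbol moved no count by more than 1.5 times. The cause of these shifts was not tested. No paired analysis was possible because each array is already a pair of cultures in a ratio and the labels give 1 group. With no intensities in the table, no filter on dim probes could be applied.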
